A study of Bos taurus with 48 samples.

Results

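The heavy chains of skeletal muscle myosin were followed in bovine longissimus muscle from 60 days of gestation to 30 months of age and through a period of weight loss and recovery. The 5 genes looked for were MYH1, MYH2, MYH3, MYH7 and MYH8, and a probe belonged to them when the gene name or the symbol in the probe description of the deposited scanner files was one of these 5. 4 of the 5 genes had a probe under this rule, and MYH2 had none. MYH1 had 2 probes and MYH3, MYH7 and MYH8 had 1 each, so 5 of the 21475 probes on the array were used.

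RNA came from 35 animals on 48 2-colour arrays, each of which compared 2 samples, so that there were 96 channels, 26 conditions and 13 time points. 36 arrays set cattle labelled Piedmontese against cattle labelled Wagyu, which the study's methods give as crosses with Hereford, at 60, 135 and 195 days of gestation, at birth (280 days in the labels) and at 3, 7, 12, 20, 25 and 30 months of age. The other 12 arrays set Belmont Red cattle on a weight loss diet, called restricted here, against Belmont Red cattle on a weight growth diet at the time points that the labels number 0, 1 and 2. The study's methods describe 3 adult time points of deprivation and later re-feeding, without saying which time belongs to which phase. Restricted and growth thus name the group of an animal at each time, not its feeding at that time. At 60 days each cross was a single fetus measured on 3 arrays, and the fetuses of different ages were different animals. Of the 9 animals sampled after birth, 5 Piedmontese × Hereford and 4 Wagyu × Hereford, 8 were biopsied repeatedly and 1 once, and of the 8 diet animals, 4 on each diet, 7 were biopsied repeatedly and 1 once. Both crosses share the Hereford side, and a pure Hereford group was not analysed here.

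A muscle fibre takes its speed of contraction largely from the heavy chain of its myosin, the motor protein of the thick filament. MYH3 encodes the embryonic chain and MYH8 the perinatal (neonatal) chain, both used by fibres that are still forming and again by regenerating fibres. MYH7 encodes the slow chain of type I fibres, which is also the beta chain of the heart, MYH2 the fast chain of type IIa fibres and MYH1 the fast chain of type IIx fibres. In the RefSeq annotation of the cattle assembly ARS-UCD2.0, MYH8, MYH4, MYH1, MYH2 and MYH3 follow each other in this order on chromosome 19, and MYH7 lies on chromosome 10.

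The 60-base probe sequences are shown because what each one reads decides what can be said of its gene. They were copied from the scanner files, 5′ to 3′, and capitals mark the letters AATAAA, the usual polyadenylation signal.
MYH1-a: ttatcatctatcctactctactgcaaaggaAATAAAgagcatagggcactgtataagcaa
MYH1-b: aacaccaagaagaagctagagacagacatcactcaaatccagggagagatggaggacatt
MYH3: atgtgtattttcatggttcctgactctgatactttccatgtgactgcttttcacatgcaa
MYH7: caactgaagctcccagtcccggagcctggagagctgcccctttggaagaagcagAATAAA
MYH8: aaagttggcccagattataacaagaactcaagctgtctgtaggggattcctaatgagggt

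The letters AATAAA, searched on the strand shown, are in MYH1-a and in the MYH7 probe, where they are the last bases. They are in 2536 of the 21475 probes of the array (11.8%). The pair of MYH1 probes, here named MYH1-a and MYH1-b, carry the same transcript accession in the files and differ in GC content, at 36.7% and 45%. The MYH3, MYH8 and MYH7 probes have a GC content of 38.3%, 43.3% and 55%. No transcript sequences were available for a search, so whether a probe also matches another chain of the same gene cluster was not tested. MYH1-a, MYH1-b, MYH3 and MYH7 were well above background in 96 of 96 channels, and MYH8 was so in 24. That is exactly the minimum of 24 channels set for a probe to be tested, and 18 of the 24 were fetal, so MYH8 entered the tests through the samples in which it was high. 0 member spots were saturated. All levels below are log2 intensities of 1 animal, with each animal's channels at a time point averaged, and a level of one probe says nothing against the level of another.

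One library stood apart before any myosin was considered. In the fetus labelled Piedmontese of array replicate 2 at 135 days, the actin gene ACTA1 of skeletal muscle was at 9.96 against 16.79 to 17.58 in the other 4 fetuses of that age, and the creatine kinase gene CKM at 8.67 against 12.85 to 13.72. The mean over the 11 probes of 9 skeletal muscle marker genes was 9.37 against 13.18 to 13.67. Its fatty acid binding protein gene FABP4 was at 16.62 against 8.97 to 11.70, and the mean over 6 adipocyte marker probes was 13.72 against 8.60 to 9.66. The steps next to 135 days, the contrast of fetal with post-natal muscle and the differences between crosses are therefore given with and without it, while the gene lists and the correlations include it and were not computed without it. In the other libraries the mean of the muscle marker probes lay between 11.68 and 16.03, and the markers at diet time 1 are given beside the diet results. 51.1% to 74.7% of probes were well above background in the Cy3 channels and 57.5% to 78.9% in the Cy5 channels. Differences were tested with limma over 15822 probes, with Benjamini-Hochberg adjustment, and a probe was called at an adjusted p under 0.05. In a biopsy, fewer fibres that use a chain and less RNA of that chain per fibre cannot be told apart.

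MYH3, the embryonic chain, was high in fetal muscle and lower by a factor of 174 at birth, with the fall between 195 days of gestation and birth. At 60 days it was at 16.95 in the Piedmontese × Hereford fetus and 17.60 in the Wagyu × Hereford fetus. At 135 days the Piedmontese × Hereford fetuses were at 17.81, 17.79 and, in the library that stood apart, 11.83, and the Wagyu × Hereford fetuses at 17.64 and 18.04. At 195 days the values were 17.64 and 17.44 against 17.70, 17.83 and 17.73. Apart from that 1 library the fetal values thus lay within about 1 log2 unit of each other. At birth MYH3 ranged from 9.01 to 11.47 with a median of 10.53 over 6 animals, and no newborn came near a fetus of 195 days.

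The difference between 195 days and birth was −7.44 (SE 0.53, adjusted p = 8.39e-17), which is a 174-fold lower signal, with 64.7% of all probes called in this contrast. It was −7.43 without the library that stood apart, where 66.4% of probes were called. Arrays of 195 days and of birth shared slides, and MYH3 was called in this step under 17 of 17 alternatives, slide as a fixed block among them. Over the whole fetal period against the 6 post-natal times, MYH3 differed by −8.37 (SE 0.34, 331-fold, adjusted p = 3.77e-27; 78.4% of probes called), and by −8.68 without that library (79.1% called). The fetal and the post-natal arrays were on different slides, so slide and stage cannot be told apart in this last contrast.

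After birth MYH3 did not fall to the background of the array: 48 of 48 post-natal channels were well above it. The medians were 9.34 at 3 months, 8.50 at 7 months, 9.37 at 12 months, 8.34 at 20 months, 9.03 at 25 months and 8.38 at 30 months. The step from birth to 3 months was −0.96 (SE 0.47, adjusted p = 0.0862; 47.7% of probes called), and without the library that stood apart, which sets much of the spread in the fit, it was −0.95 (SE 0.28) and called at an adjusted p of 0.00483 (50% called). In the same way, the step from 12 to 20 months was −1 (adjusted p = 0.123; 10.3% called) and became −1.01 with an adjusted p of 0.00738 without it (11.5% called). The step from 20 to 25 months was 0.82 in both fits, with adjusted p of 0.139 and 0.0136 (11% and 12.6% called), and the step from 25 to 30 months −0.80 in both, with adjusted p of 0.126 and 0.00972 (19.9% and 21.2% called). These calls between neighbouring ages depended on leaving out 1 fetal library. So did the call from birth to 12 months, −0.89 (SE 0.51, adjusted p = 0.137) with all libraries and −0.87 (SE 0.31, adjusted p = 0.0163) without that library. The share of all probes called is not given for this pair. The calls from birth to 7, 20, 25 and 30 months did not depend on it. The arrays of birth were on slides without post-natal arrays, and those of 25 and 30 months on slides without other ages. Slide and age thus cannot be told apart in the differences from birth, from 3 to 30 months or from 20 to 25 months. Of the 21 pairs of time points from birth to 30 months, 5 were called for MYH3 with all libraries and 12 without that library, the same 5 among them. MYH3 differed from birth by −1.39 at 7 months (SE 0.47, adjusted p = 0.0106; 54.2% of probes called), −1.89 at 20 months (SE 0.47, adjusted p = 0.000686; 52.7% called), −1.06 at 25 months (SE 0.47, adjusted p = 0.0473; 58.1% called) and −1.86 at 30 months (SE 0.47, adjusted p = 0.000824; 53.7% called). The fifth pair was 3 and 30 months, −0.90 (SE 0.37, adjusted p = 0.0483; 38% called). In order of its levels MYH3 was lowest at 20 and 30 months, and no neighbouring pair in that order from there up to birth differed past the threshold with all libraries. From birth to the next level up, that of 135 days, the difference was 6.61 (SE 0.53, adjusted p = 2.36e-15; 72.1% of probes called). No pair of the 3 fetal ages differed past the threshold.

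MYH8, the perinatal chain, rose during gestation and was at the edge of detection at birth. At 60 days it was at 11.41 and 11.76 in the fetus of each cross. At 135 days it was at 12.42, 11.86 and 8.10 in the Piedmontese × Hereford fetuses, the last being the library that stood apart, and at 12.74 and 12.88 in the Wagyu × Hereford fetuses. At 195 days it was at 13.88 and 14.00 against 13.72, 12.27 and 13.69. At birth it lay between 6.78 and 7.02 in all 6 animals. All fetuses, the odd one included, were above all newborns.

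From 135 to 195 days MYH8 rose by 1.79 (SE 0.34, 3.45-fold, adjusted p = 8.34e-05; 22.3% of probes called), or by 1.11 without the library that stood apart (adjusted p = 2.54e-07; 22.2% called). The rise from 60 to 135 days was 0.22 (SE 0.44, adjusted p = 0.866; 15% called), and 0.89 (SE 0.20, adjusted p = 0.000552; 18.6% called) without it. Only 1 of 6 channels at birth, 4 of 48 post-natal channels and 1 of 24 diet channels were well above background, so no exact fold is given against birth or later ages. At 12, 20 and 25 months and at diet times 1 and 2, where no channel was well above background, MYH8 was at least 28.5-fold lower than at 60 or 135 days and at least 108-fold lower than at 195 days. From birth to 30 months the largest difference between any pair of the 7 time points was 0.18, among values at or near the floor.

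**Figure D1:**
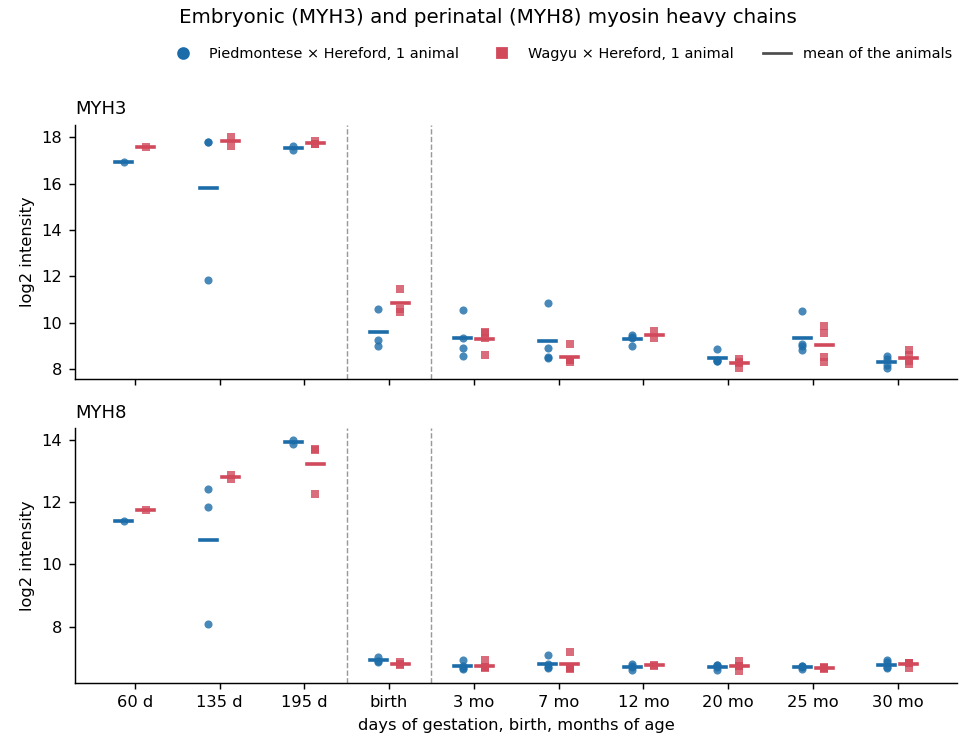
Log2 intensity of the MYH3 and MYH8 probes (y axes, each with its own range) at 60, 135 and 195 days of gestation, birth and 3 to 30 months of age (x axis). Circles are Piedmontese × Hereford animals, squares Wagyu × Hereford animals and short lines their means; both probes lie high in the fetuses and low from birth on, and the single low circle at 135 days is the library that stood apart, at 11.83 for MYH3 and 8.10 for MYH8.

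MYH7, the slow chain, was already bright at 60 days and rose less than the fast chain. At 60 days it was at 15.03 and 15.48, at 135 days at 16.34, 15.93 and 10 in the Piedmontese × Hereford fetuses against 16.73 and 16.84 in the Wagyu × Hereford fetuses, and at 195 days at 16.57 and 15.73 against 16.70, 17.30 and 17.22. At birth it ranged from 16.58 to 17.44 with a median of 17.26, and post-natal medians lay between 17.05 and 17.26. The fetal and newborn ranges met, unlike those of MYH3 and MYH8.

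The rise of MYH7 from fetal to post-natal muscle was 1.36 (SE 0.29, 2.57-fold, adjusted p = 3.72e-05) and 1.05 (SE 0.11) without the library that stood apart. Where in gestation the rise took place depended on that library. With it, no step was called: 0.20 from 60 to 135 days (adjusted p = 0.921), 1.19 from 135 to 195 days (SE 0.48, adjusted p = 0.0668) and 0.51 from 195 days to birth (adjusted p = 0.327). Without it, the step from 60 to 135 days was 1.17 (SE 0.23, adjusted p = 0.000157; 18.6% of probes called). The step from 195 days to birth was then 0.53 (SE 0.17, adjusted p = 0.00482; 66.4% called), while that from 135 to 195 days was 0.20 (adjusted p = 0.496). From birth to 30 months the largest difference of MYH7 between any pair of time points was 0.13, and in the order of its levels no neighbouring time points differed by the test.

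MYH1, the fast chain of type IIx fibres, gave the largest rise, and for its probe MYH1-b the main step fell between 135 and 195 days. By MYH1-b the single fetuses of 60 days were at 10.22 and 11.19. At 135 days the values were 12.58, 11.94 and 8.96 against 12.58 and 12.63, and at 195 days 16.46 and 15.79 against 15.47, 16.53 and 16.16. At birth MYH1-b lay between 17.17 and 17.83. Each age of gestation, with the odd library set aside, lay wholly above the one before it, and all newborns lay above all fetuses.

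The steps of MYH1-b were 1.21 (SE 0.33, adjusted p = 0.00669), 4.23 (SE 0.25, 18.8-fold, adjusted p = 2.69e-18) and 1.36 (SE 0.24, adjusted p = 2.62e-06) from 60 to 135 days, 135 to 195 days and 195 days to birth. Without the library that stood apart they were 1.67, 3.76 and 1.37, all called, where 18.6%, 22.2% and 66.4% of all probes were called. The first step was lost under 7 of 17 alternatives, with the lowest value 0.79, and the second was called under 17 of 17. From 195 days to the next level in order, that of 30 months, the difference was 1.23 (SE 0.22, adjusted p = 4.31e-06; 65.7% of probes called). From birth to 30 months the largest difference between any pair was 0.12.

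MYH1-a showed the same direction with a smaller range. At 60 days it was at 12.32 and 13.45, at 135 days at 15.02, 14.10 and 7.93 against 14.82 and 14.40, and at 195 days at 16.26 and 15.66 against 16.15, 17.10 and 16.62. Newborns lay between 16.01 and 17.15, within the reach of the 195-day fetuses. The step from 60 to 135 days was 0.62 (SE 0.70, adjusted p = 0.695), or 1.67 (SE 0.32, adjusted p = 0.000102) without the library that stood apart. The step from 135 to 195 days was 2.83 (SE 0.54, adjusted p = 8.49e-05), or 1.76 (SE 0.25) without it, so that both steps were then of about the same size. The step from 195 days to birth was 0.20 (SE 0.51, adjusted p = 0.739), and 0.22 (SE 0.23) without it. From fetal to post-natal muscle MYH1-a rose by 2.35 (95% interval 1.70 to 3.00) and MYH1-b by 4.48 (95% interval 4.18 to 4.78), so that the intervals of these 2 probes of 1 gene did not meet. Without that library the rises were 2.01 (SE 0.15) and 4.33 (SE 0.08).

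Over the 26 condition means the pair of MYH1 probes had a Pearson r of 0.959, but within the 12 post-natal conditions r was −0.44 and within the 6 diet conditions 0.974. These are descriptions over condition means that share arrays and animals. The probes thus followed each other over all conditions and among the diet conditions, and not among the small differences of the 12 post-natal conditions.

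**Figure D2:**
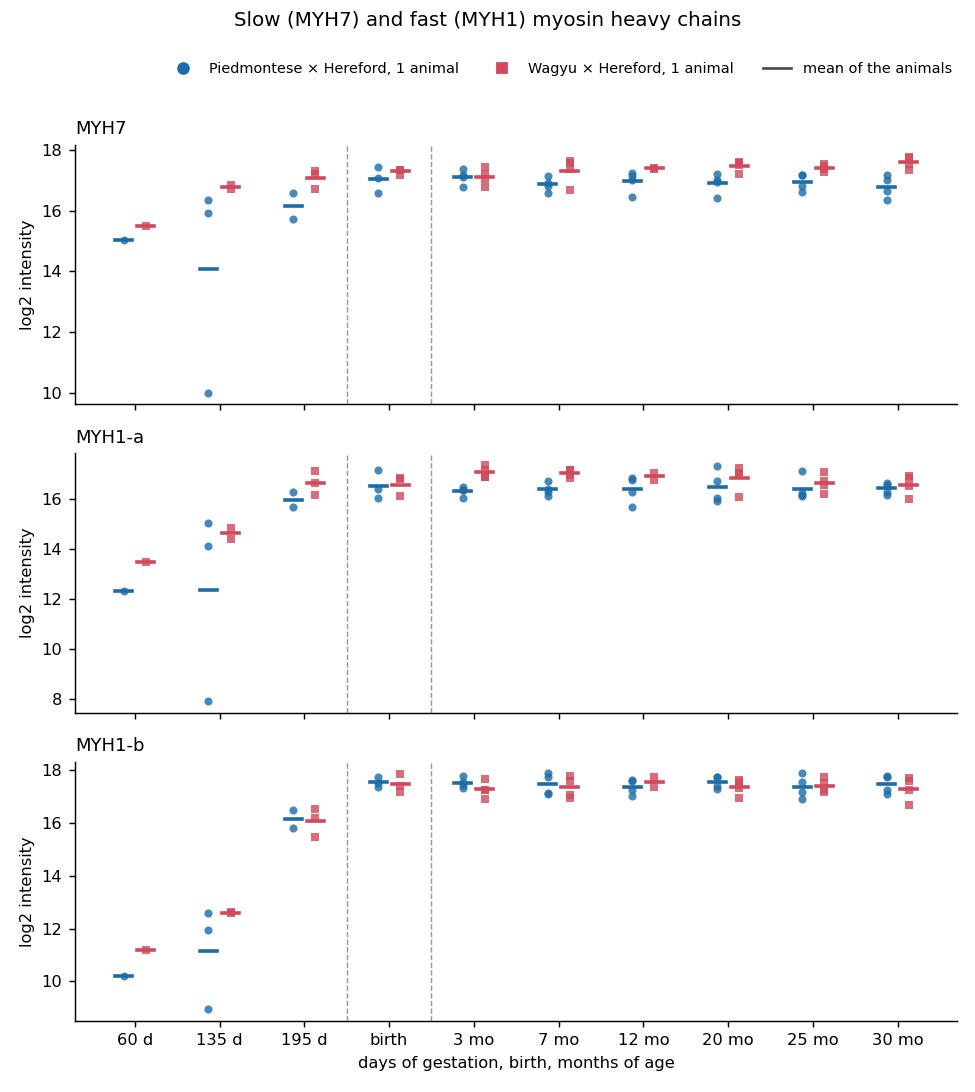
Log2 intensity of the MYH7, MYH1-a and MYH1-b probes (y axes, each with its own range) over the 10 developmental time points (x axis). Circles are Piedmontese × Hereford animals, squares Wagyu × Hereford animals and short lines their means; all 3 probes reach their adult level by birth, MYH1-b from 10.22 and 11.19 at 60 days, and the lowest circle at 135 days in each panel is the library that stood apart.

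In the contrast of fetal with post-natal muscle all 5 probes were called, 3 up and 2 down, but 78.4% of all probes were called as well and MYH8 passed the filter through its fetal values, so the count itself singles out nothing. Between neighbouring time points 1 of 5 probes was called from 60 to 135 days, where 15% of all probes were, 3 from 135 to 195 days, where 22.3% were, and 3 from 195 days to birth, where 64.7% were. MYH8, at its floor at birth, is 1 of the last 3. In each of the 6 later steps 0 of 5 were called. For those later steps 47.7%, 16.5%, 11.1%, 10.3%, 11% and 19.9% of all probes were called from birth to 3 months and on to 7, 12, 20, 25 and 30 months. At an unadjusted p under 0.05 the later steps of MYH3 from birth to 3 months and over the last 3 intervals would count, and none of the other 4 probes.

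**Figure D3:**
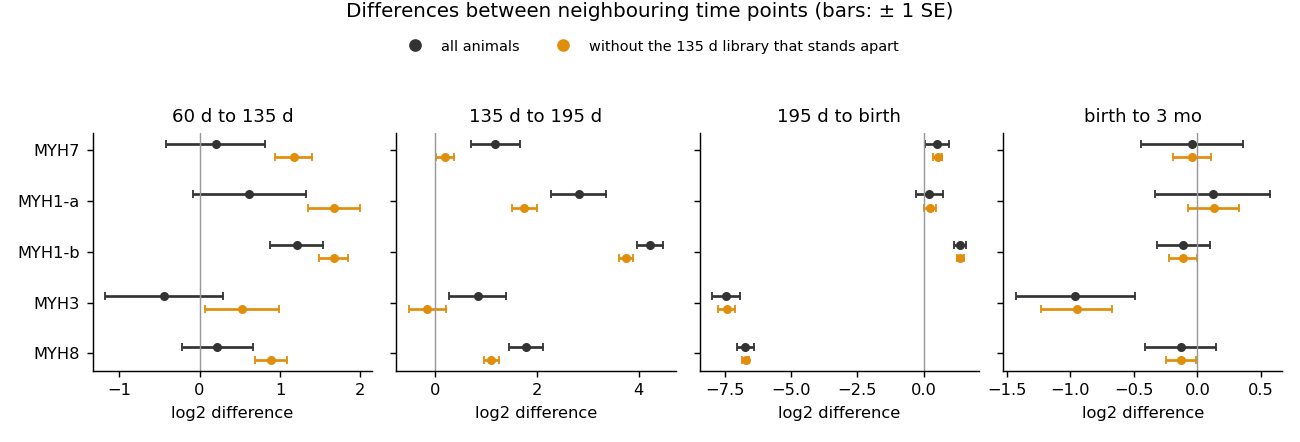
Log2 difference between neighbouring time points (x axes, each panel with its own range) for the 5 probes (y axis), with bars of 1 SE either way. Dark points use all animals and orange points leave out the library that stood apart at 135 days; the fall of MYH3 at birth, −7.44, hardly moves without it, the point of MYH8 at birth is measured against values at the floor, and the MYH7 and MYH1 steps on either side of 135 days do move.

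The difference between MYH7 and MYH1-b within a sample moved with age. A shift common to a whole channel leaves this difference unchanged, but normalization that depends on intensity, as used here, can alter it. MYH7 minus MYH1-b was 4.55 ± 0.36 (SD, n = 2) at 60 days and 3.43 ± 1.34 (n = 5) at 135 days. Without the library that stood apart, which was at 1.05, the value at 135 days was 4.03 ± 0.20 (n = 4). The difference was 0.62 ± 0.57 (n = 5) at 195 days and −0.34 ± 0.34 (n = 6) at birth. From 3 to 30 months its means stayed between −0.31 and −0.17. A value of 0 has no meaning of equal amounts, since the probes differ in sequence. The signals of the slow and the fast chain thus moved unequally before birth, and from birth on the means of the difference lay closer to each other than 1 SD.

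The genes whose condition means followed each member most closely over the 26 conditions were taken with 1 probe each. For MYH1 (MYH1-b) they were ACTN3 (r = 0.991), the alpha-actinin of fast fibres, MYBPC2 (0.99), the fast myosin binding protein C, TMOD4 (0.987), which caps thin filaments, PFKM (0.987), the muscle phosphofructokinase of glycolysis, and RYR1 (0.987), the calcium release channel. For MYH7 they were ACTN2 (0.947), the other sarcomeric alpha-actinin, FHL1 (0.898), PDE4DIP (0.895), the Z-disc gene MYOT (0.887) and COX6A2 (0.882), the muscle form of a cytochrome c oxidase subunit. For MYH3 they were MAGED1 (0.982), MYL4 (0.981), the embryonic and atrial myosin light chain, NELL1 (0.98), PTPRD (0.979) and GPX7 (0.977), and for MYH8 ARHGAP36 (0.983), CCDC141 (0.978), IGSF1 (0.978), MYL4 (0.975) and MAGED1 (0.974). MYH3 and MYH8 had MAGED1 and MYL4 in common, and with each other an r of 0.973. MYH7 followed its nearest genes less closely than the others did, and the correlations describe condition means that share the step at birth.

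Among the other heavy chain genes, 8 of 10 had a probe and 6 were tested. From fetal to post-natal muscle MYH4, the fast chain of type IIb fibres, rose by 3.18 (SE 0.16, 9.05-fold) and MYH14, a non-muscle chain, by 3.02 (SE 0.14), while MYH10, another non-muscle chain, fell by 1.03 (SE 0.16). The remaining 3 rose: the smooth muscle chain MYH11 by 1.20, the non-muscle chain MYH9 by 0.60 and MYH7B by 0.59. MYH4 rose at each step before birth, by 1.01 (adjusted p = 0.0438), 1.80 and 1.30. The probes of MYH13, the extraocular chain, and MYH15 were above background in 0 of 96 channels.

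Genes that work beside the heavy chains in the sarcomere were taken as lists. Of 10 probes for fast fibre sarcomere genes, 8 rose, 0 fell and 2 were not called from fetal to post-natal muscle, with a median difference of 0.97, where the median over all probes was 0.03 and 40.5% of all probes rose and 37.9% fell. The largest rises were those of MYBPC2, 6.16 (SE 0.12), and ACTN3, 5.54 (SE 0.15). Of 12 probes for slow fibre sarcomere genes 8 rose and 2 fell, with a median of 1.18. ATP2A2, the slow fibre calcium pump, rose by 3.54 (SE 0.16) and TNNT1, the slow troponin T, by 2.82 (SE 0.20), while CASQ2, the slow and cardiac calsequestrin, fell by 2.67 (SE 0.21) and TPM3, a slow tropomyosin, by 0.88 (SE 0.12). Of 10 genes of embryonic and fetal muscle 8 fell and 0 rose, with a median of −2.49, led by MYL4, −7.77 (SE 0.24, 219-fold), and CHRNG, the fetal acetylcholine receptor subunit, −6.62 (SE 0.27, 98.3-fold). Within the step from 195 days to birth, 7 of these 10 fell, against 30.3% of all probes, and 3 of 10 fast and 5 of 12 slow fibre probes rose, against 34.5%.

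Of 14 probes for myosin folding and thick filament assembly 8 rose and 3 fell. TRIM63, a ubiquitin ligase of the sarcomere, rose by 4.97 (SE 0.22) and the giant filament gene TTN by 3.64 (SE 0.22), while MYBPC3, the cardiac myosin binding protein C, fell by 1.43 (SE 0.16) and the chaperone gene UNC45A by 0.40 (SE 0.05). Of 30 probes for regulators of heavy chain genes 24 rose and 4 fell, with a median of 0.94. MYF6 rose by 2.48 (SE 0.25) and TBX15 by 2.47 (SE 0.12), both transcription factors of muscle, while MYOG, which drives differentiation of myoblasts, fell by 1.60 (SE 0.29) and PRDM1 by 1.12 (SE 0.10).

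Cell type markers also differed between fetal and post-natal muscle, not all of them at birth. The mean of the skeletal muscle marker probes had medians of 14.31 at 195 days and 15.09 at birth, and 9 of 11 of these probes rose from fetal to post-natal muscle, with differences of 3.95 for CKM (SE 0.21) and 3.89 for the myoglobin gene MB (SE 0.23). Fibroblast markers fell at 9 of 9 probes, with medians of 13.08 at 195 days and 10.97 at birth and differences of −3.27 for COL1A2 (SE 0.25) and −3.45 for LUM (SE 0.18). Markers of satellite cells and myoblasts fell at 3 of 3 probes, with medians of 10.19 and 7.63. The differences were −1.29 for NCAM1 (SE 0.07) and −6.62 for CHRNG (SE 0.27). CHRNG is also in the list of embryonic and fetal muscle genes, so the lists are not independent. All 6 tested adipocyte probes rose, CIDEC with a difference of 2.80 (SE 0.44) and LPL of 2.43 (SE 0.28). The medians of the adipocyte markers were 8.35 at 195 days, 8.71 at birth and 11.25 at 30 months, so most of this rise came after birth. Of 9 blood probes 3 rose, CD3E (1.06) and PTPRC (1.05) among them, and 5 fell, with HBA (−5.91) and the fetal globin HBG (−6.60). Of 6 endothelial probes 1 rose, VWF (0.85), and 4 fell, with KDR (−2.07) and CDH5 (−1.09). Of 5 smooth muscle probes 1 rose, MYH11 (1.20), and 3 fell, with ACTA2 (−1.86). Of 4 Schwann cell probes 1 rose, S100B (0.48), and 3 fell, with PMP22 (−0.97). The part of these shifts in the change of the heavy chains was not tested.

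Between the crosses, MYH7 had lower values in Piedmontese × Hereford than in Wagyu × Hereford fetuses, in a call that depended on 1 library and on how the fetuses were counted. The 60-day pair was left out of the test, having 1 animal a cross. At 135 days the highest Piedmontese × Hereford value was 16.34 and the lowest Wagyu × Hereford value 16.73, and at 195 days 16.57 and 16.70, so the crosses did not overlap at either age. With 2 or 3 animals a cross this was not particular to MYH7: MYH8 did not overlap at either age, lower in Piedmontese × Hereford fetuses at 135 days and higher at 195 days, and MYH3 did not overlap at 195 days. The share of all probes without overlap was not computed, so these separations are a description only. With the library that stood apart, the difference was −2.22 (SE 0.68, adjusted p = 0.769; 0% of probes called, and 826 with an unadjusted p under 0.05). Without it, it was −0.99 (SE 0.14, adjusted p = 0.0111), the only one of 15822 probes called (0.00632%). An exact permutation test over the animals of 135 and 195 days, two-sided and within age, gave p = 0.01, the smallest it can give, and p = 0.0167 without that library, again the smallest. This test compared means pooled over both ages. The crosses had unequal numbers of fetuses at each age, so age enters the compared difference. Both Piedmontese × Hereford fetuses of 195 days carry codes that differ by a letter, and whether they are 2 fetuses or 1 sampled more than once is not known. Counted as 1 fetus, the limma difference without the library that stood apart was −0.91 (SE 0.15, adjusted p = 0.197) and no longer called, with 0 of all probes called. The exact permutation test then gave p = 0.025 with that library and p = 0.0417 without it, both the smallest possible with 40 and 24 permutations. The other 4 probes were not called with or without it, with differences of 0.10 (MYH8), −0.39 (MYH1-a), −0.33 (MYH3) and −0.27 (MYH1-b) without it.

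At birth no member probe was called between crosses (0.746% of all probes were), with MYH7 at 17.07, 17.44 and 16.58 in Piedmontese × Hereford calves and 17.35, 17.19 and 17.34 in Wagyu × Hereford calves. MYH3 was at 9.23, 10.61 and 9.01 against 10.60, 10.46 and 11.47, a difference of −0.75 (SE 0.87, adjusted p = 0.819), or −1.07 (SE 0.31, adjusted p = 0.0773) without the library that stood apart. The crosses overlapped for both chains.

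After birth limma called 0 member probes and 0% of all probes between crosses, with 184 probes at an unadjusted p under 0.05. The largest member difference was that of MYH1-a, −0.54 (SE 0.81, adjusted p = 1), followed by MYH7, −0.49 (SE 0.69, adjusted p = 1), in a fit whose spread includes the library that stood apart. Without it they were −0.47 (SE 0.25) and −0.43 (SE 0.13), both with an adjusted p of 1. The animal means were also compared by an exact two-sided permutation test, added after the data had been seen, on each animal's mean deviation from its time points. MYH7 deviated by −0.41 to 0.07 in the 5 Piedmontese × Hereford animals and by 0.04 to 0.34 in the 4 Wagyu × Hereford animals, a difference of −0.41 (exact p = 0.0238). MYH1-a deviated by −0.60 to −0.04 and 0.02 to 0.43, a difference of −0.47 (exact p = 0.00794, the smallest 126 permutations allow), while MYH1-b differed by 0.17 (exact p = 0.206), MYH3 by 0.08 (exact p = 0.873) and MYH8 by −0.03 (exact p = 0.651). These p-values are not adjusted over all probes.

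By time point MYH7 was lower in Piedmontese × Hereford animals at 5 of 6 ages, and the crosses did not overlap at 12, 25 and 30 months. At 30 months the 4 Piedmontese × Hereford animals were at 16.65, 17.02, 16.34 and 17.18 and the 4 Wagyu × Hereford animals at 17.77, 17.75, 17.53 and 17.34, a difference of −0.80. At 3 months the means were 17.12 in both. MYH1-a was lower at 6 of 6 ages and did not overlap at 3 and 7 months, while MYH1-b was lower at 2 of 6 ages and overlapped at 6 of 6. Most of the same animals recur over these ages, and Wagyu × Hereford had only 2 animals at 12 months. The share of all probes with such counts was not computed, so the counts are a description only. The probes of the fast chain thus differed from each other in the sign of the cross difference. The difference of the cross effect between stages was not called for any member: from fetal to post-natal it was 1.73 for MYH7 (SE 0.96, adjusted p = 1; 0% of probes called, 257 at an unadjusted p under 0.05), from fetal to birth 2.44 (adjusted p = 0.555; 0.0758% called) and from birth to post-natal −0.71 (adjusted p = 1; 0.0379% called). Without the library that stood apart these MYH7 values were smaller, at 0.56 (SE 0.19), 0.88 (SE 0.22, limma adjusted p = 0.209) and −0.32 (SE 0.21, limma adjusted p = 0.778). No member was called in them then either.

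**Figure D4:**
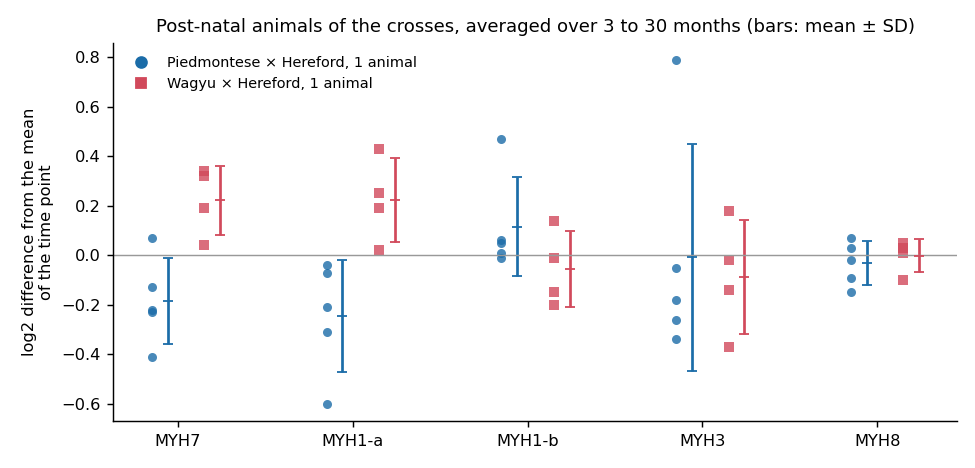
Each post-natal animal's log2 difference from the mean of its time points (y axis), averaged over 3 to 30 months, for the 5 probes (x axis), with circles for 5 Piedmontese × Hereford and squares for 4 Wagyu × Hereford animals and bars for the mean ± SD. The crosses are separate for MYH1-a, nearly so for MYH7, and overlap for MYH1-b, MYH3 and MYH8; the high MYH3 circle at 0.79 is 1 animal.

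The within-sample difference of MYH7 minus MYH1 was compared between crosses and diets in 6 exact two-sided permutation tests over animals, adjusted together. With MYH1-b it was −0.30 ± 0.14 (SD, n = 5) in Piedmontese × Hereford and 0.28 ± 0.16 (n = 4) in Wagyu × Hereford animals after birth, relative to the mean of each time point, a difference of −0.57 (exact p = 0.00794, adjusted 0.0476). With MYH1-a in its place the difference was 0.06 (exact test, adjusted p = 0.847), so the direction turned with the choice of MYH1 probe. With the mean of both probes it was −0.26 (exact test, adjusted p = 0.0954). The other 5 tests were not called: −0.51 between crosses at 135 and 195 days, −0.36, 0.39 and −0.87 between diets at times 0, 1 and 2, and −0.27 for MYH3 minus MYH8 between crosses at 135 and 195 days. Both tests at 135 and 195 days compared means pooled over these ages. Piedmontese × Hereford had 3 and 2 fetuses at them and Wagyu × Hereford 2 and 3, while MYH7 minus MYH1-b averaged 3.43 and 0.62. Age thus enters these comparisons, and they cannot decide on a cross difference.

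In the diet animals, the slow and the fast chain were lower on the restricted diet at time 1. MYH7 was at 16.54, 16.43 and 16.85 in the 3 restricted animals and at 17.87, 18.16, 17.82 and 17.85 in the 4 growth animals. MYH1-b was at 16.78, 16.23 and 16.45 against 17.92, 18.51, 18.49 and 17.89. Neither probe overlapped between diets. The share of all probes without overlap among these 3 and 4 animals was not computed, so this separation is a description only. MYH1-a was at 16.79, 15.23 and 14.04 against 16.95, 18.00, 18.10 and 16.74, with 1 restricted animal just above the lowest growth animal. One restricted animal was measured on 2 of the 4 arrays and counted once.

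The differences at time 1 were −1.36 for MYH7 (SE 0.36, 2.57-fold, adjusted p = 0.0174), −1.76 for MYH1-b (SE 0.35, 3.39-fold, adjusted p = 0.00384) and −2.06 for MYH1-a (SE 0.56, 4.16-fold, adjusted p = 0.0203), with 17.8% of all probes called. MYH3 (0.22, SE 0.47) and MYH8 (0.06, SE 0.13) were not called, and MYH8 was at its floor. The 3 calls fell to 1 under quantile normalization of all channels or without array replicate 1, and to 0 without array replicate 4 or with array as a replicate block. All 14 alternatives kept the direction of each, between −1.57 and −0.67 for MYH7, −1.91 and −1 for MYH1-b and −2.27 and −1.23 for MYH1-a.

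At time 0 no member was called between diets (3.62% of probes were), with MYH7 at 16.88, 15.62, 17.63 and 16.99 against 16.37, 17.61, 17.57 and 17.78, a difference of −0.55 (SE 0.33, adjusted p = 0.438). At time 2, with 2 animals a diet, 0% of probes were called, 234 at an unadjusted p under 0.05, and MYH1-b was at 17.96 and 17.43 on the restricted and 17.32 and 17.44 on the growth diet. The change of the diet difference from time 0 to time 1 was called for MYH1-b, −1.57 (SE 0.44, adjusted p = 0.0384; 10.1% of probes called), and not for MYH1-a, −1.99 (SE 0.71, adjusted p = 0.0882), or MYH7, −0.81 (SE 0.45, adjusted p = 0.284). The MYH1-b call held under 3 of 14 alternatives. From time 1 to 2 the change was 2.17 for MYH1-b (SE 0.54, adjusted p = 0.0577; 1.74% called), 2.17 for MYH1-a and 0.91 for MYH7.

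Within a diet, no member was called over time, and each diet time lies on 1 slide, so time and slide cannot be told apart there. The share of all probes called was 12.3% on the restricted diet from time 0 to 1, 3.79% from time 1 to 2, and 3.05% and 0.00632% for the same intervals on the growth diet. MYH1-b changed by −0.69 (SE 0.33, adjusted p = 0.174) and then 1.26 (SE 0.39, adjusted p = 0.0916) on the restricted diet, and by 0.88 (SE 0.30, adjusted p = 0.117) and −0.92 (SE 0.37, adjusted p = 0.496) on the growth diet. MYH3 was at 10.90 and 9.04 on the restricted and 9.80 and 11.37 on the growth diet at time 2, after 8.27 to 9.84 in the animals of time 1, a change of 1.62 (SE 0.50, adjusted p = 0.338) on the growth diet.

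**Figure D5:**
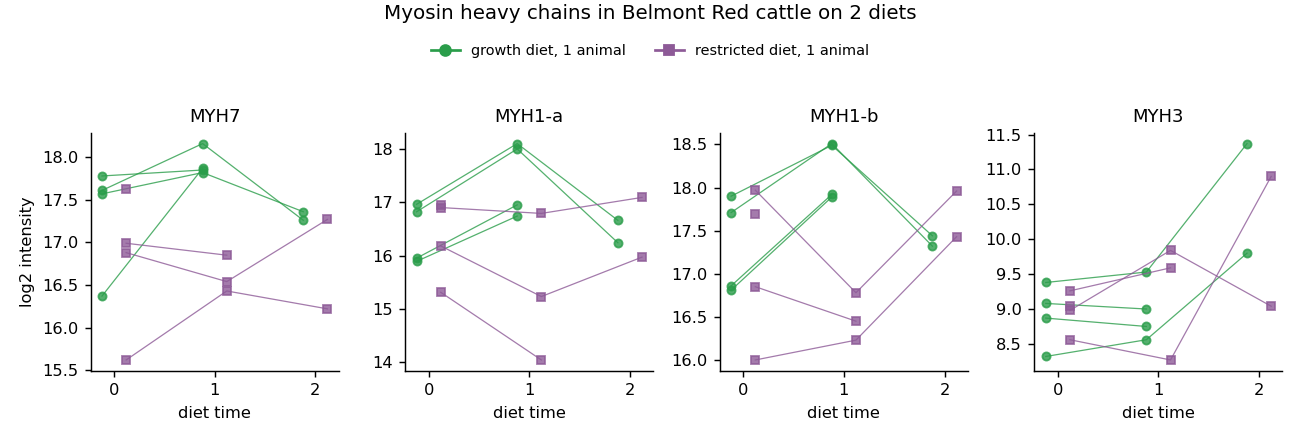
Log2 intensity of MYH7, MYH1-a, MYH1-b and MYH3 (y axes, each panel with its own range) at diet times 0, 1 and 2 (x axis), with a line joining the samples of 1 animal, circles for the growth diet and squares for the restricted diet. At time 1 the restricted animals lie below the growth animals for MYH7 and MYH1-b, and 1 restricted animal lies within the growth range for MYH1-a.

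Other muscle genes and cell type markers moved at diet time 1 as well. Of the 10 fast fibre sarcomere probes 6 fell and 0 rose, with a median of −1.39 against 0 for all probes, of which 9.18% rose and 8.62% fell, and of the 12 slow fibre probes 5 fell and 0 rose, with a median of −0.79. MYH4 fell by 1.25 (SE 0.36, adjusted p = 0.0285), MYH11 by 0.71 (SE 0.23, adjusted p = 0.0472) and MYH9 by 0.66 (adjusted p = 0.00392), while MYH14 rose by 1.01 (adjusted p = 0.0235). Of the 11 skeletal muscle marker probes 5 fell and 1 rose; ACTA1 was at 11.64 to 11.91 on the restricted and 17.38 to 18.43 on the growth diet, CKM at 15.24 to 15.97 and 16.47 to 17.71, and the desmin gene DES at 16.99 to 17.59 and 15.39 to 16.30. The log2 of the summed intensity of the muscle markers was 19.33 to 19.47 on the restricted and 20.21 to 20.78 on the growth diet. Of the 9 fibroblast probes 6 fell, with summed levels of 13.20 to 13.98 against 15.87 to 17.27 and COL3A1 at 8.87 to 9.91 against 13.40 to 14.31. The summed adipocyte level was 11.66 to 12.55 against 12.64 to 13.58, with 0 of 6 probes called, and 4 of 5 smooth muscle, 3 of 6 endothelial and 1 of 4 Schwann cell probes fell. The part of these shifts in the difference of MYH7 and MYH1 between diets was not tested.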

How the data were processed

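Total RNA of longissimus biopsies was labelled and hybridised by the authors, who deposited the spot tables of Agilent Feature Extraction 9.5.1 with the mean signal and local background intensity of both channels. These tables, and the series table alike (largest difference 0), give a log10 ratio of Cy5 to Cy3 that the authors' software corrected for dye, and this ratio was used where array was a block. The genome build behind the probe design is not given in the sources used here.

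Intensities were corrected by normexp with an offset of 50, control spots and outlier-flagged spots (52 to 903 an array, 0 of them member spots) were left out, and log2 values were normalized by loess within and Aquantile between arrays in limma 3.58.1 (R 4.3.3). Spots of a probe were averaged, and 16711 of 21475 probes were matched to a RefSeq gene by gene number, transcript or symbol; other probes kept their name. MYH1 and MYH7 were matched by transcript, MYH3 and MYH8 by symbol. The 15822 probes well above background in at least 24 of 96 channels entered limma (linear model and eBayes, two-sided tests, Benjamini-Hochberg, threshold 0.05), on 1 value per animal and time point (64 developmental, 19 diet), with condition and share of Cy5 channels as terms and the animal as a random block (correlation 0.275 and 0.137). Crosses were tested on 1 value per animal. The number of arrays limits the precision. The scripts were tested on simulated data.

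The members and the gene lists were chosen with earlier results of these data known. Every member probe is named; of other genes, the 5 with the highest r to each member's brightest probe, and at most 2 rises and 2 falls of each list from fetal to post-natal muscle. MYH2 minus MYH1 could not be computed. Leaving out the library that stood apart, and the permutation test of each probe were chosen after seeing the data. 2 animal codes at 195 days that differ by a letter were counted as separate animals, and as 1 in an alternative. The samples lie on 12 slides scanned in 6 sessions. The labels give array numbers only, which do not pair animals across conditions; the animal codes do, over the times after birth and the diet times.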

Additional observations from a re-analysis of the deposited data

Results flagged for a closer look

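Of 60 groups of 4 to 8 animals, 9 held a value whose gap to its neighbour was larger than Dixon's limit, where chance alone gives about 1 in 20 groups. 5 of the 9 were the same Piedmontese × Hereford fetus of 135 days, the lowest of 5 for every member probe: MYH1-a at 7.93 (next 14.10), MYH1-b at 8.96 (next 11.94), MYH3 at 11.83 (next 17.64), MYH7 at 10 (next 15.93) and MYH8 at 8.10 (next 11.86). Its muscle and adipocyte markers are given in the report, and their part in these values was not tested.

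The other 4 were single values. MYH3 was highest at 10.83 in a Piedmontese × Hereford animal of 7 months (next 9.07) and at 8.88 in a Piedmontese × Hereford animal of 20 months (next 8.41). MYH8 was lowest at 12.27 in a Wagyu × Hereford fetus of 195 days (next 13.69). MYH7 was lowest at 16.22 in a restricted animal at diet time 2 (next 17.26).

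The diet difference of MYH1-b changed from time 0 to time 1 by −1.57, the change that limma called at an adjusted p of 0.0384.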

How the results depend on the processing

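The counts of member probes called changed as follows. Between neighbouring developmental time points 7 of 45 tests were called, 13 without array replicate 2 (7 to 13 over the replicates left out) and 15 without the library that stood apart; between crosses 0, 1 without that library, and 0 without it when the codes at 195 days that differ by a letter were counted as 1 fetus; between diets 3, 1 with quantile normalization, 1 without replicate 1, 0 without replicate 4 (0 to 3 over the replicates) and 0 with array as a replicate block. Without the replicate block of repeated animals the counts stayed at 7 and 3, and for the diets over time at 0. The post-natal difference of MYH7 minus MYH1 between crosses, −0.57, was −0.26 with the mean of the probes of a gene, 0.06 with the other MYH1 probe, −0.44 without replicate 1, and −0.70 to −0.44 over the replicates left out. Of the other settings of counts and balances, 124 kept their side of the threshold or their size. The called differences of single probes were called again in 212 settings and kept their direction but missed the threshold in 35, as with the step of MYH1-b from 60 to 135 days. The fall of MYH3 at birth was called in 17 of 17 settings. MYH8 passed the filter through its fetal channels and could not be tested with a minimum of 48 channels, so its calls against birth and later ages are no sign of stability. The slide block could not be fitted between the prenatal and post-natal arrays. Signal over background limits MYH8 from birth on.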
